A study of Homo sapiens with 6 samples.

Results

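MicroRNA host transcripts are long RNAs, most of them without a protein product, that carry the hairpin of 1 or more microRNAs (miRNAs) in an exon or an intron. The hosts described here are the genes of the count table whose symbol begins with MIR and ends with HG, with MIR548XHG set aside. They numbered 64 of the 60676 genes listed, and 23 of the 64 had enough reads to be tested. Short reads of long RNA were counted, so the values are levels of the host transcript, and the mature miRNAs were not measured.

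The cells were TC71, an established human Ewing sarcoma line, a bone and soft tissue tumor driven by a fusion of EWS with the transcription factor FLI1. Polyclonal, puromycin-selected derivatives carried a lentiviral SMARTvector that makes GFP together with an shRNA once doxycycline (Dox) is added. In the shNTC+Dox group (n = 3) the shRNA has no target, in the shEHD1+Dox group (n = 3) it is directed at EHD1, an ATPase that moves receptors along the endocytic pathway, and both groups received 0.5 µg/ml Dox for 3 days. The comparison asks which host transcripts differ once EHD1 is depleted. Limits of the model are that a single line was used, that the labels do not say which EHD1 shRNA the libraries carried, and that cells without Dox were not analysed here. Nothing in the labels says that the 3 replicates of a group came from separate cultures, so p-values measure the spread between these libraries, which may be technical.

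The shNTC+Dox libraries, called controls below, held 26528902, 28203023 and 22711235 counts, and the shEHD1+Dox libraries held 28157184, 24150135 and 30582187. EHD1 itself was read at 713, 775 and 589 counts in the controls against 215, 175 and 290 after knockdown, with no overlap between the groups. This was a log2 fold change of -1.76 (SE 0.12, adjusted p = 1.35e-04 by the quasi-likelihood test of edgeR), or 29.6% of the control level. Among 11 markers of Ewing sarcoma fixed for the check of the cell type, 10 were tested, and the 11 summed to between 1523 and 1623 CPM (read counts scaled to a common library size after TMM normalization) in all 6 libraries, with PRKCB the most abundant. The summed markers of blood, epithelium and endothelium did not exceed 0.403 CPM in any library. Fibroblast markers summed to between 86.0 and 142 CPM, mostly PDGFRB, with the 86.0 in the third control library and at least 114 CPM in the others, and the muscle markers MYOD1 and DES had no count. Some markers moved with the knockdown. Of the 10 tested Ewing markers, BCL11B, STEAP1 and NPY1R fell and CD99 rose, that is 3 and 1 of 10, beside 8.75% and 8.59% of all genes tested. Of the 4 fibroblast markers DCN fell, by 1.01 on the log2 scale, while COL1A1, LUM and PDGFRB were at 0.16, 0.44 and 0.05 and did not pass (0.00, 0.19 and -0.15 without the third control library). MYH3, the one muscle marker tested, fell by 1.08. The call of CD99 was lost without shNTC+Dox replicate 1 or 2 or shEHD1+Dox replicate 1 or 3 (adjusted p = 0.0724, 0.0555, 0.108 and 0.117 by edgeR), and that of MYH3 without shNTC+Dox replicate 1 or 3 or shEHD1+Dox replicate 2 or 3 (0.0822, 0.0535, 0.0902 and 0.114). Their part in the host levels was not tested.

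The third shNTC+Dox library stood apart from its group. Chi-square per degree of freedom over genes was 5.64 between the first and second control libraries, but 26.4 and 27.9 between the third and each of these, against at most 18.7 within shEHD1+Dox and at least 33.1 between the groups.

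A miRNA gene can be transcribed as part of its host. The hairpin is then cut from the transcript by DROSHA with its partner DGCR8, exported, and cut again by DICER1 to a short duplex. A strand of the duplex is loaded into an Argonaute protein and pairs with messenger RNAs mainly through its seed, the bases at positions 2 to 8. Hairpins with the same seed often lie in several hosts on different chromosomes, as the let-7 and miR-9 families do, so that the same mature product can be supplied from more than 1 place. Because the hairpin is cut out of the host, a host level does not translate directly into a level of its miRNA.

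The hosts that fell on EHD1 knockdown carry members of the let-7 family, miR-9 and miR-924, among others. The mature sequences below were taken from RefSeq (GRCh38.p14) and are written 5′ to 3′, with the seed in capitals. The first 4 come from MIRLET7BHG and MIRLET7A1HG, which fell, and the next 2, from MIR99AHG and MIR4500HG, are shown since they have the same seed but lie in hosts that did not pass the test.
hsa-let-7a-5p: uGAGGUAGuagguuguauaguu
hsa-let-7b-5p: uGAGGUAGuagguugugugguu
hsa-let-7d-5p: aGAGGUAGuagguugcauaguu
hsa-let-7f-5p: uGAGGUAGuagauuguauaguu
hsa-let-7c-5p: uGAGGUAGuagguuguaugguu
hsa-miR-4500: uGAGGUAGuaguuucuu
The products of MIR9-3HG and MIR924HG, shown since both hosts fell, and a product of MIR17HG, shown since its call changed with the test, have other seeds.
hsa-miR-9-5p: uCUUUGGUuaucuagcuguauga
hsa-miR-9-3p: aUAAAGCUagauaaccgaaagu
hsa-miR-924: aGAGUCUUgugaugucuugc
hsa-miR-17-5p: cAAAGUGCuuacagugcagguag
The hairpin genes MIR22 and MIR4458, which GENCODE places in exons of MIR22HG and MIR4458HG, complete the hosts that fell.

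Of the 64 hosts, 19 had no count in any library, 13 had between 1 and 3 counts at most in any library, and 9 exceeded 3 counts somewhere without reaching the 10 counts in 3 libraries asked of a tested gene. A count of 3 corresponded to between 0.0969 and 0.134 CPM, so levels under this were not detectable at this depth. The silent group held hosts known from other tissues: MIR122HG of the liver, MIR124-2HG of neurons, MIR1-1HG of muscle, and MIR200CHG and MIR205HG of epithelium, besides MIR31HG, MIR194-2HG, MIR202HG, MIR217HG, MIR381HG, MIR646HG, MIR670HG, MIR3150BHG, MIR3976HG, MIR4290HG, MIR4300HG, MIR4307HG, MIR4422HG and MIR7515HG. Hosts with 1 to 3 counts at most were MIR100HG, MIR155HG, MIR548A1HG, MIR583HG, MIR663AHG, MIR1302-2HG, MIR2052HG, MIR2117HG, MIR3142HG, MIR378D2HG, MIR3945HG, MIR4527HG and MIR5689HG. Those read above 3 counts but not tested were MIR7-3HG, MIR29B2CHG, MIR133A1HG, MIR181A1HG, MIR210HG, MIR302CHG, MIR3663HG, MIR3681HG and MIR4713HG. MIR194-2HG lies 161 bases upstream of the 5′ end of EHD1 on the same strand of chromosome 11 and had no count with or without knockdown.

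The 23 tested hosts were low-abundance transcripts. Their mean level in shNTC+Dox ran from 0.171 CPM for MIR34AHG (0.257 CPM without the third control library) to 12.7 CPM for MIR4435-2HG, with a median of 2.83 CPM against 18.0 CPM over all 16785 genes tested, and none of the 23 reached that overall median. Scaled per kilobase of annotated exon, which is the scale on which genes can be compared, MIR3659HG was the most abundant in shNTC+Dox at 5.48 CPM per kb, followed by MIRLET7A1HG at 1.40 and MIR9-3HG at 1.08. MIR99AHG, whose annotated exons sum to 58906 bases, was at 0.0713 CPM per kb, and MIR34AHG was lowest at 0.0196. This order rests on the third control library, where MIR4453HG and MIR34AHG had no count: without it MIR4453HG was second at 1.42 CPM per kb, above MIRLET7A1HG at 1.20 and MIR9-3HG at 1.11, and MIR4500HG was lowest at 0.0239 CPM per kb. Exon lengths are the union over all annotated isoforms, so a host that uses few of its exons is understated on this scale. The summed CPM of all 64 hosts was 84.9, 83.8 and 88.3 in the controls against 71.6, 66.3 and 66.4 after knockdown.

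On knockdown, 6 of the 23 tested hosts fell and none rose at an adjusted p under 0.05. The share that fell was 26.1%, beside 8.75% of all genes tested that fell, while 8.59% of all genes rose and 17.3% were called in either direction. MIR9-3HG and MIR22HG also passed a fold change of 2, as did 1.74% of all genes tested in this direction and 2.82% in either. The median log2 fold change was -0.16 over the 23 hosts, 14 below 0 and 9 above, and 0.00 over all genes tested. With 1 library left out the median over the hosts lay between -0.51, without shNTC+Dox replicate 3, and -0.22. The count was under 6 with any library left out, and the genes called over the whole table, 2910 with all libraries, moved too. In the knockdown group, leaving out replicate 3 gave 2 hosts beside 1322 genes. Replicate 1 or 2 of that group left out gave 3 hosts, beside 1341 and 2074 genes. In the controls, 4 hosts fell with replicate 1 or 2 left out, beside 1713 and 2051 genes. With control replicate 3 left out 5 hosts fell, although more genes were called (3616). Among the 15 hosts that share exon bases with a gene other than a miRNA 5 fell (33.3%), and among the 8 that share none 1 fell (12.5%). The library kit does not mark strand, so reads in shared bases cannot be told apart. AC133637.2 and AC011139.1, which share exon bases with MIR9-3HG and MIR924HG, had no count in any library. PRR34 and PRR34-AS1, which share them with MIRLET7BHG, had enough reads to be tested. At an unadjusted p under 0.05, 7 hosts were lower and 3 were higher, beside 16.3% and 16.0% of all genes tested. The 3 libraries of each group did not overlap for 7 hosts that were lower and 3 that were higher, beside 19.4% and 19.9% of all genes tested. The zero count of hosts that rose came from edgeR, and DESeq2 and every other setting run also gave 0. In RNA from bulk cultures, fewer cells that make a transcript and less of it per cell cannot be told apart.

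**Figure D1:**
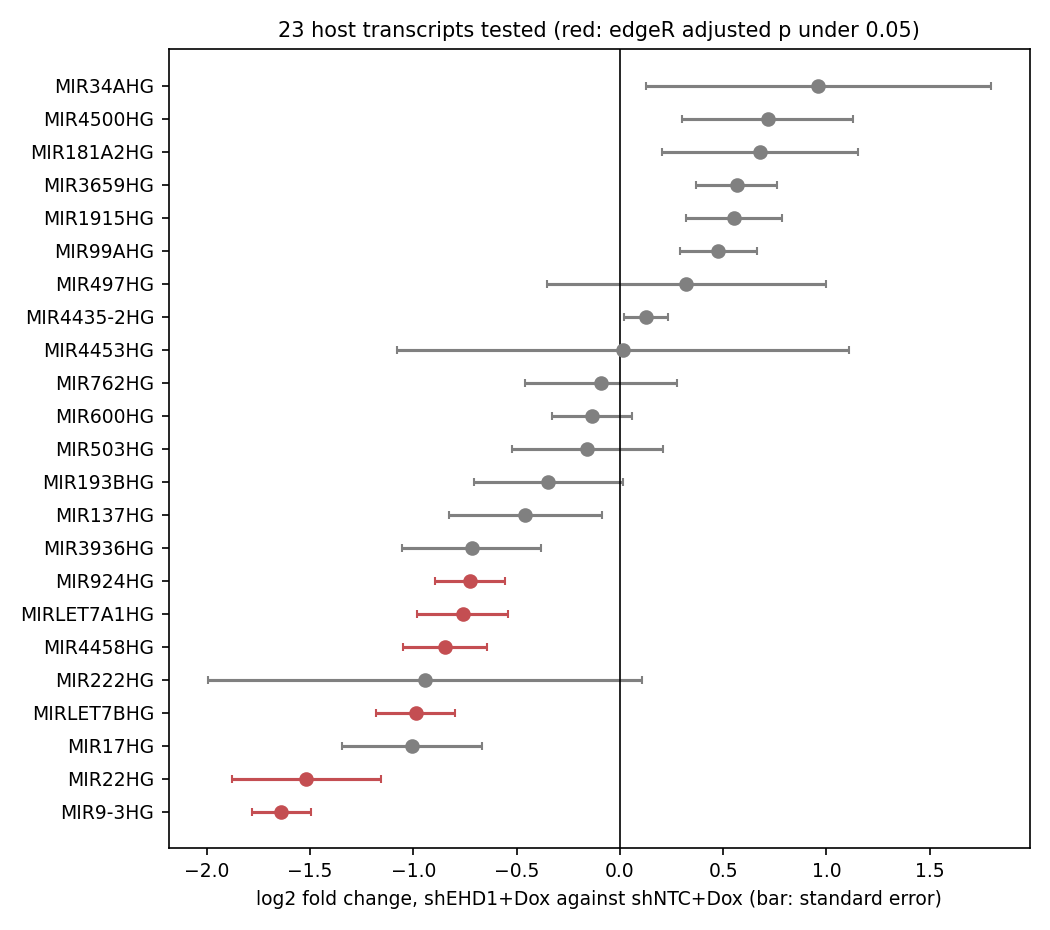
Log2 fold change of shEHD1+Dox against shNTC+Dox (x axis) for each of the 23 tested host transcripts (y axis), with bars for the standard error derived from the edgeR test and red for an adjusted p under 0.05. The 6 red hosts lie between -1.64 and -0.73, and MIR222HG and MIR4453HG have the widest bars, each with a library at 0 counts.

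With all 6 libraries MIR9-3HG had the largest fall among the hosts. Without shEHD1+Dox replicate 1 it was at -1.70, with MIR22HG at -1.89 and MIR222HG, which was not called, at -2.18. Without shNTC+Dox replicate 2 it was at -1.66 and MIR22HG at -1.74. The MIR9-3HG gene lies on chromosome 15 (89361579 to 89424983, GRCh38, plus strand). It carries the hairpin of miR-9-3 in an exon, 1 of the hairpins that give the miR-9 sequences shown above. It was read at 323, 302 and 236 counts in the controls against 111, 80 and 113 after knockdown. The lowest control library held more than 2 times the count of the highest knockdown library. Mean levels were 11.2 ± 0.903 CPM and 3.61 ± 0.316 CPM (SD, n = 3 each), for a log2 fold change of -1.64 (SE 0.14, adjusted p = 2.85e-04 by edgeR's quasi-likelihood test). The call held in all 11 alternative settings, with values from -1.70 to -1.57. An exact two-sided permutation test gave p = 0.1 here and for each of the other hosts that fell, the smallest p that 3 against 3 libraries allow.

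The miR-9 sequences are also encoded at 2 further places, neither of which has a symbol that fits the rule for the hosts. These were added for comparison, with their values known. C1orf61, named MIR9-1HG by GENCODE, carries miR-9-1 in an exon on chromosome 1 and was read at 110, 133 and 85 counts in the controls against 61, 53 and 71 after knockdown. All 3 knockdown libraries lay below all 3 controls, and C1orf61 fell by 0.95 on the log2 scale (SE 0.19, adjusted p = 0.0102 by edgeR's quasi-likelihood test). LINC00461, which carries miR-9-2 in an exon on chromosome 5, was read at 388, 365 and 313 counts against 302, 38 and 261. Its groups did not overlap either, but the second knockdown library was far below the other two, and the log2 fold change of -1.02 (SE 0.62) did not pass (adjusted p = 0.328 by edgeR). Without that library LINC00461 was at -0.55 (adjusted p = 0.0517 by edgeR). Thus the hosts of miR-9-3 and miR-9-1 fell, and the host of miR-9-2 did not pass the test.

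MIRLET7BHG on chromosome 22 (46053869 to 46113928, plus strand) carries let-7a-3 and let-7b in exons, besides MIR4763 and MIR3619. The let-7 family is known as a brake on growth genes such as RAS and HMGA2. Its host was read at 139, 138 and 105 counts in the controls against 74, 50 and 89 after knockdown. The highest knockdown library stayed below the lowest control, also as a share of the library (2.88 against 4.70 CPM). The mean went from 4.99 ± 0.290 to 2.51 ± 0.424 CPM (SD, n = 3), a log2 fold change of -0.99 (SE 0.19, adjusted p = 0.00999 by edgeR's quasi-likelihood test), and the call held in all 11 alternatives. At its start MIRLET7BHG shares exon bases with PRR34, with a log2 fold change of -0.05 (adjusted p = 0.887 by edgeR), and with PRR34-AS1, with -0.54 (adjusted p = 0.0823 by edgeR). Without the third control library these were at -0.14 and -0.39.

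MIRLET7A1HG on chromosome 9 (94166258 to 94200905, plus strand) carries let-7a-1, let-7d and let-7f-1, all in exons. Its counts were 136, 167 and 186 in the controls against 126, 78 and 120 after knockdown, or 5.17, 6.03 and 8.33 CPM against 4.42, 3.19 and 3.88 CPM. The groups did not overlap, but the third control library was well above its fellows. The log2 fold change was -0.76 (SE 0.22), just past the threshold (adjusted p = 0.0452 by edgeR's quasi-likelihood test). Without the third shNTC+Dox library it was -0.55 (adjusted p = 0.0715 by edgeR). The call was also lost without the second shNTC+Dox library (0.0721) or without shEHD1+Dox replicate 1, 2 or 3 (adjusted p = 0.0810, 0.130 and 0.126). No filter on low counts (adjusted p = 0.0617 by edgeR) and the replicate number as a block (0.0851) ended the call too. MIRLET7A1HG shares 1297 of its 4656 exon bases with LINC02603 on the opposite strand, which had at most 7 counts in any library.

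The let-7 seed is found in 8 miRNA genes spread over 5 of the hosts, which gives a comparison within a family. These groupings were made after the values were seen. MIR99AHG on chromosome 21 carries let-7c, miR-99a and the hairpin gene MIR125B2. It was read at 130, 93 and 96 counts in the controls against 181, 137 and 172 after knockdown. Its 3 knockdown libraries were above its 3 controls, with a log2 fold change of 0.48 (SE 0.19) that did not pass (adjusted p = 0.114 by edgeR). MIR4500HG on chromosome 13, with miR-4500 in an intron, had few reads, 11, 10 and 15 counts against 21, 26 and 18, and its log2 fold change of 0.71 (SE 0.41) did not pass either (adjusted p = 0.269 by edgeR). This value of MIR4500HG was 0.46 without shEHD1+Dox replicate 2 and 1.01 without shNTC+Dox replicate 3. As shares of the library its groups overlapped. MIR100HG, the host of let-7a-2, was not above 3 counts in any library.

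Ratios within a library set these hosts against each other without regard to depth. The log2 ratio of MIR99AHG to MIRLET7BHG was -0.10, -0.56 and -0.13 in the controls against 1.27, 1.42 and 0.93 after knockdown, a difference of 1.47 with no overlap. For MIR99AHG against MIRLET7A1HG the difference was 1.22, and for MIR4500HG it was 1.62 against MIRLET7BHG and 1.38 against MIRLET7A1HG, all with no overlap. The pairs were chosen for hosts that lay on either side of 0, so these differences are a description with no test. Between the hosts that both fell, the ratio of MIRLET7A1HG to MIRLET7BHG differed by 0.25, with overlap. Without the third control library these 5 differences were 1.53, 1.06, 1.89, 1.42 and 0.48, in the same order.

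**Figure D2:**
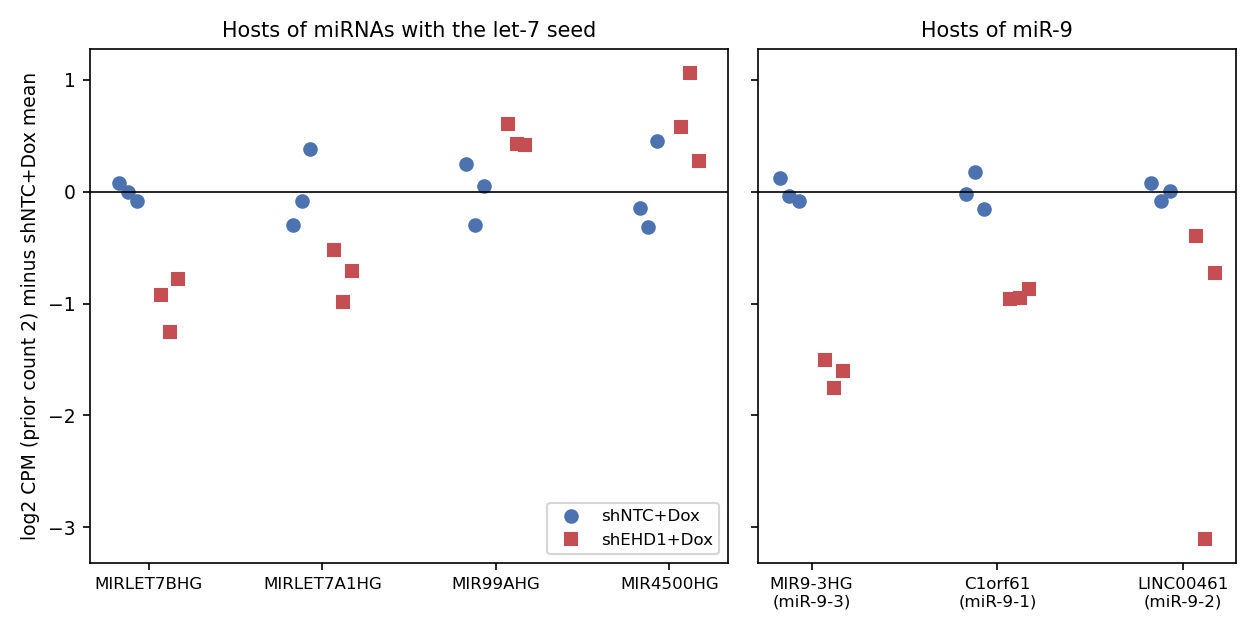
Log2 CPM of each library relative to the mean of the shNTC+Dox libraries (y axis, prior count 2) for hosts of miRNAs with the let-7 seed (left) and hosts of miR-9 (right), with blue circles for shNTC+Dox and red squares for shEHD1+Dox. All 3 knockdown libraries of MIRLET7BHG, MIRLET7A1HG, MIR9-3HG, C1orf61 and LINC00461 lie below 0, and those of MIR99AHG and MIR4500HG lie above it.

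MIR22HG on chromosome 17 (1711447 to 1717174, minus strand) is the host of miR-22, whose hairpin lies in an exon. It was read at 66, 44 and 67 counts in the controls against 34, 15 and 20 after knockdown, or 2.37 ± 0.716 and 0.818 ± 0.326 CPM (SD, n = 3). The lowest control and the highest knockdown library were close, at 1.59 and 1.19 CPM. The log2 fold change was -1.52 (SE 0.36, adjusted p = 0.0223 by edgeR's quasi-likelihood test). It stayed between -1.89 and -1.32 when any library was left out, but the adjusted p by edgeR went to 0.0616 without the first shNTC+Dox library, 0.0748 without shEHD1+Dox replicate 2 and 0.0901 without replicate 3. MIR22HG was the only host that fell and shares no exon bases with a gene other than its own miRNA.

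MIR924HG on chromosome 18 (39206917 to 39800322, minus strand) spans a long stretch and carries miR-924 and miR-5583-2 in introns. Counts were 227, 196 and 199 in the controls against 120, 139 and 154 after knockdown, and all knockdown libraries were below all controls. The log2 fold change was -0.73 (SE 0.17, adjusted p = 0.0209 by edgeR's quasi-likelihood test). Without shNTC+Dox replicate 1, shEHD1+Dox replicate 1 or shEHD1+Dox replicate 3 the adjusted p by edgeR was 0.0671, 0.0848 and 0.0761. With the replicate number as a block it was 0.0631.

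MIR4458HG on chromosome 5 (8450701 to 8486930, plus strand) was read at 111, 117 and 76 counts in the controls against 63, 46 and 77 after knockdown. The raw counts overlapped by 1 read, but as shares of the library the groups were apart, at 3.40 CPM for the lowest control and 2.49 CPM for the highest knockdown library. The log2 fold change was -0.85 (SE 0.20, adjusted p = 0.0237 by edgeR's quasi-likelihood test). The call was kept without the third shNTC+Dox library (-0.94, adjusted p = 0.00984 by edgeR) but lost when any other library was left out. The adjusted p by edgeR was 0.0756 and 0.0689 without shNTC+Dox replicate 1 and 2, and 0.0839, 0.0678 and 0.0562 without shEHD1+Dox replicate 1, 2 and 3. The 3 annotated genes on the opposite strand that share exon bases with MIR4458HG had at most 5 counts in a library.

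**Figure D3:**
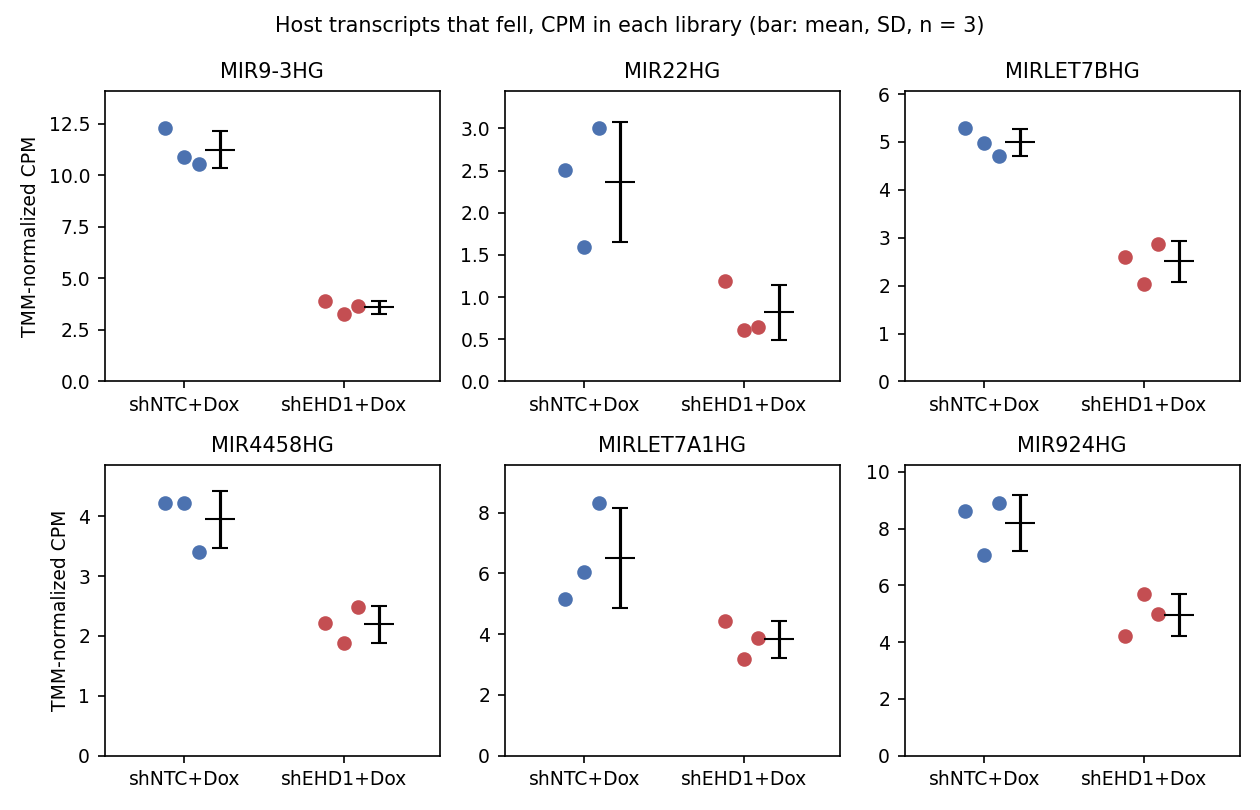
TMM-normalized CPM (y axis, from 0) in each of the 3 shNTC+Dox (blue) and 3 shEHD1+Dox (red) libraries for the 6 hosts that fell, with the mean and SD beside each group. The groups are apart in every panel, by a wide margin for MIR9-3HG (10.6 against 3.90 CPM for the nearest libraries) and a narrow one for MIR22HG (1.59 against 1.19 CPM) and MIRLET7A1HG (5.17 against 4.42 CPM).

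MIR17HG, the host of the miR-17-92 cluster that is known to promote growth in many tumors, did not pass. Its 6 hairpins, of miR-17, miR-18a, miR-19a, miR-20a, miR-19b-1 and miR-92a-1, all lie in exons. Counts were 77, 109 and 167 in the controls against 79, 57 and 62 after knockdown, or 2.93, 3.94 and 7.48 CPM against 2.77, 2.33 and 2.00 CPM. The groups did not overlap on the CPM scale, with the third control library far above the rest. The log2 fold change was -1.01 (SE 0.34, adjusted p = 0.0748 by edgeR's quasi-likelihood test) and -0.54 without the third shNTC+Dox library (adjusted p = 0.132 by edgeR). It passed by DESeq2 (adjusted p = 0.0289) and without the first shNTC+Dox library (adjusted p = 0.0364 by edgeR).

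Besides MIR17HG, 3 hosts had groups that did not overlap without passing the test, all higher in shEHD1+Dox. MIR99AHG is described above. MIR3659HG was read at 89, 127 and 73 counts against 179, 128 and 159, with a log2 fold change of 0.57 (SE 0.19, adjusted p = 0.0794 by edgeR). MIR1915HG was read at 2.28, 3.68 and 3.81 CPM against 5.09, 5.07 and 4.17 CPM, with a log2 fold change of 0.55 (SE 0.23, adjusted p = 0.134 by edgeR), or 0.35 without shNTC+Dox replicate 1. None of these 3 passed under any alternative.

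MIR4453HG shows how a single library can set a value. It was read at 118, 111 and 0 counts in the controls against 94, 72 and 75 after knockdown, and the 0 was in the control library that stood apart. With that library the log2 fold change was 0.01 (SE 1.09), and without it the value was -0.56 (adjusted p = 0.0795 by edgeR). MIR222HG, which carries miR-221 and miR-222, likewise had counts of 58, 42 and 60 against 67, 24 and 0, and its log2 fold change of -0.94 had an SE of 1.05. The value for MIR222HG was -0.34 without shEHD1+Dox replicate 3, which held the 0, and -2.18 without shEHD1+Dox replicate 1. MIR497HG, the host of miR-195 and miR-497, ran from 10 to 54 counts in the controls and from 18 to 94 after knockdown, and its log2 fold change of 0.32 ran from -0.53 to 0.76 with 1 library left out. It shares 1466 of its 3842 exon bases with C17orf49 on the opposite strand, and since strand is lost in the library kit used, reads from overlapping genes cannot be told apart.

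The most abundant host by CPM, MIR4435-2HG, was read at 314, 355 and 299 counts in the controls against 380, 341 and 444 after knockdown. Its log2 fold change was 0.13 (SE 0.11, adjusted p = 0.449 by edgeR), with overlap, and 0.08 without shNTC+Dox replicate 1. This gene has a near-identical copy, CYTOR, so its counts are uncertain. MIR600HG, at 146, 128 and 139 counts against 125, 148 and 139, had a log2 fold change of -0.14 (SE 0.19), which ran from -0.30 without shEHD1+Dox replicate 2 to -0.03 without shNTC+Dox replicate 3. The remaining tested hosts were sparse. MIR34AHG, the host of the p53 target miR-34a, was read at 4, 10 and 0 counts against 15, 4 and 11, for a log2 fold change of 0.96 with an SE of 0.83, and of 0.45 without the third control library, which held the 0. MIR181A2HG, MIR137HG, MIR193BHG, MIR503HG, MIR762HG and MIR3936HG had log2 fold changes from -0.72 to 0.68, none past the threshold, and from -0.92 to 1.01 with 1 library left out. MIR548XHG, which was set aside, was read at 78, 43 and 33 counts against 2, 0 and 1.

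The position of the hairpin was taken from the same annotation. Of the 23 tested hosts, 20 had a miRNA on their own strand among the RefSeq mature sequences used here. These were 36 miRNA genes in all, of which 24 lie in exons and 12 in introns. Of the 6 hosts that fell, 4 had such a match, with 10 miRNA genes. These tallies are short, since the sequences used lacked MIR22, MIR4458, MIR3936 and MIR125B2. GENCODE places those hairpins in same-strand exons of MIR22HG, MIR4458HG, MIR3936HG and MIR99AHG. MIR9-3HG, MIRLET7A1HG and most of MIRLET7BHG carry theirs in exons, whereas both of MIR924HG lie in introns. GENCODE gives 20 further genes of the table a name of the same form, although the table lists them under other symbols. Of these 5 were tested, C1orf61 fell and none rose, that is 1 of 5 beside 8.75% of all genes tested that fell and 8.59% that rose. AC020916.1, named MIR23AHG, was next with a log2 fold change of -0.57 (adjusted p = 0.0692 by edgeR), and AC048341.1, named MIRLET7IHG for let-7i, had -0.46 (adjusted p = 0.262 by edgeR). AP000662.1, named MIR130AHG, and AL928970.1, named MIR1302-9HG, were at 0.43 and 0.42 (adjusted p = 0.481 and 0.591 by edgeR), or 0.17 and 0.23 without the third control library. AC048341.1 ran from -0.68 to -0.32 with 1 library left out.

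Of the 12 protein-coding genes nearest to the hosts that fell, 1 fell and none rose, beside 8.75% and 8.59% of all genes tested. The neighbour that fell was TICRR, a factor needed to start DNA replication, which lies 150 kb after MIR9-3HG and fell by 0.60 on the log2 scale (SE 0.08, adjusted p = 0.00221 by edgeR's quasi-likelihood test). On the other side of MIR9-3HG, POLG, the mitochondrial DNA polymerase, was at 0.04 (SE 0.08). TLCD2 lies 1.07 kb from MIR22HG on the same strand and was at 0.14 (SE 0.23), and WDR81, which overlaps the span of MIR22HG, was at -0.11 (SE 0.11). ATXN10 and PPARA on either side of MIRLET7BHG were at 0.10 and 0.28, and PTPDC1 and ZNF169 beside MIRLET7A1HG were at 0.28 and -0.06. MTRR near MIR4458HG was at -0.27 (adjusted p = 0.0610 by edgeR) and ATPSCKMT at -0.30, while KIAA1328 and PIK3C3, at 1975 and 2155 kb from MIR924HG, were at -0.15 and -0.03. Several of these values rested on the control library that stood apart. Without it TICRR was at -0.57 and still the one neighbour called, while TLCD2 was at -0.10, WDR81 at 0.00, PPARA at 0.04, PTPDC1 at 0.10 and SERPINF1, the other neighbour of MIR22HG, at 0.07 in place of 0.23. ATXN10 was then at 0.16, ZNF169 at -0.21, ATPSCKMT at -0.18, KIAA1328 at -0.08, PIK3C3 and POLG at -0.01 and 0.01, and MTRR at -0.25. With any 1 library left out, the 11 neighbours other than TICRR lay between -0.43 and 0.43.

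**Figure D4:**
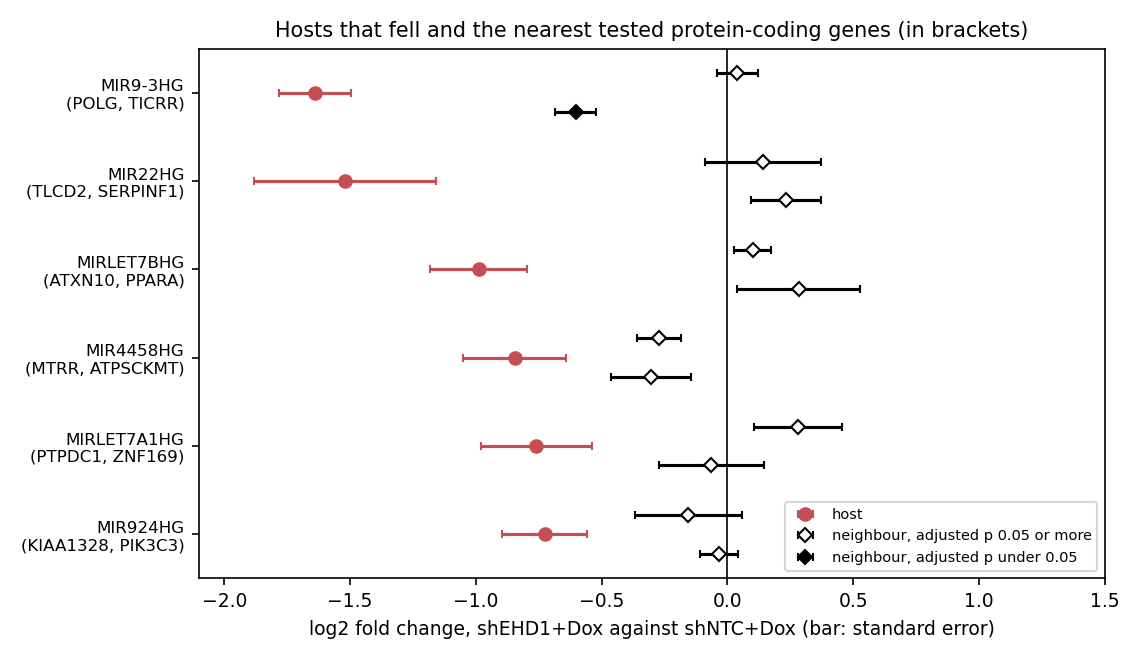
Log2 fold change with its standard error (x axis) for each host that fell (red) and for the nearest tested protein-coding gene on each side of it (diamonds, upper for before and lower for after, filled where the adjusted p was under 0.05). TICRR at -0.60 is the only filled diamond, and the other 11 neighbours lie between -0.30 and 0.28 with all 6 libraries.

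The genes around the hosts were described from lists that had been written with earlier results of these data known. In the list of miRNA processing machinery, 23 of 24 genes were tested, 3 rose (13.0%) and 5 fell (21.7%), beside 8.59% and 8.75% of all genes tested, with a median log2 fold change of -0.05. DGCR8, the partner of DROSHA that binds the hairpin in the host transcript, was read at 2073, 2014 and 2410 counts in the controls against 1187, 1432 and 1304 after knockdown, and fell by 0.87 on the log2 scale (SE 0.18, adjusted p = 0.0188 by edgeR's quasi-likelihood test). The DGCR8 call was lost without shEHD1+Dox replicate 1 or 3 (adjusted p = 0.0705 and 0.0704 by edgeR). DDX5, a helicase of the same complex, and PRKRA, a partner of DICER1, each fell by 0.50 (adjusted p = 0.00517 and 0.00241 by edgeR). TNRC6C and TNRC6A, scaffolds that silence messages bound by Argonaute, fell by 0.64 and 0.27. LIN28B, an RNA-binding protein known to block the maturation of let-7, rose by 0.39 (SE 0.10, adjusted p = 0.0272 by edgeR), from 1291, 1450 and 1340 counts to 1870, 1896 and 2115. It stayed between 0.32 and 0.47 with any library left out, but kept its call only without shNTC+Dox replicate 3 (0.47, adjusted p = 0.00328 by edgeR), with adjusted p values by edgeR of 0.0903 and 0.0726 without shNTC+Dox replicate 1 and 2 and 0.0506, 0.0808 and 0.0692 without shEHD1+Dox replicate 1, 2 and 3. TUT7, an enzyme that adds uridines to the let-7 precursor, rose by 0.37, and the Argonaute gene AGO3 rose by 0.39. With a library left out, PRKRA, DDX5 and TNRC6C kept their calls throughout. TUT7 kept its call only without shNTC+Dox replicate 3, where it was at 0.26, and had adjusted p values by edgeR of 0.0578 and 0.0559 without shNTC+Dox replicate 1 and 2 and 0.132, 0.114 and 0.0834 without shEHD1+Dox replicate 1, 2 and 3. TNRC6A lost its call in 4 of the 6 fits, without shNTC+Dox replicate 1 or 2 (0.0908 and 0.0804) or shEHD1+Dox replicate 1 or 3 (0.143 and 0.132). AGO3 lost it in 3, without shNTC+Dox replicate 1 or 2 (0.0633 and 0.0528) or shEHD1+Dox replicate 3 (0.0503).

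Among 15 tested regulators known to act on host genes, 2 rose (13.3%) and 4 fell (26.7%), beside 8.59% and 8.75% of all genes tested, with a median of -0.22, or -0.09 without shNTC+Dox replicate 3. E2F1, E2F2 and MYC, which are known to activate MIR17HG, fell by 1.09, 1.08 and 0.30 on the log2 scale. REST, a repressor of neuronal genes known to act at miR-9 genes, rose by 0.56 (SE 0.11, adjusted p = 0.0106 by edgeR's quasi-likelihood test), from 1051, 1085 and 857 counts to 1427, 1676 and 1708. NFKB1 rose by 0.81 (adjusted p = 5.41e-04 by edgeR), and EPAS1, a hypoxia-inducible factor, fell by 1.21 (adjusted p = 5.30e-04 by edgeR). These calls held with any library left out, except those of E2F2 without shEHD1+Dox replicate 3 (adjusted p = 0.0589 by edgeR) and of MYC without shNTC+Dox replicate 1 or shEHD1+Dox replicate 1 (0.0538 and 0.0697). The part of these changes in the host levels was not tested.

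Hosts under other kinds of symbol were described in the same way. Of 33 tested protein-coding genes with an intronic miRNA, SKA2 (miR-301a and miR-454), PPARGC1B (miR-378a) and PANK1 (miR-107) fell, by 0.62, 0.68 and 0.59 on the log2 scale, and TLN2 (miR-190a) and PTK2 (miR-151a) rose, by 0.70 and 0.29. PANK1 was not called without shEHD1+Dox replicate 1 or 3 (adjusted p = 0.0779 and 0.0586 by edgeR), nor PTK2 without shNTC+Dox replicate 1 or shEHD1+Dox replicate 1 or 3 (0.0565, 0.0611 and 0.0570). The 5 calls were 15.2% of these 33, beside 17.3% of all genes tested, and the median was 0.03, or -0.01 without shNTC+Dox replicate 3. Of 5 tested long non-coding hosts with other names, all were below 0, as were 49.9% of all genes tested, with a median of -0.76. Of the 5, 1 was called lower, beside 8.75% of all genes tested that fell. DNM3OS, the host of miR-199a-2 and miR-214, fell (-0.76, SE 0.21, adjusted p = 0.0359 by edgeR's quasi-likelihood test). Its counts were 271, 270 and 159 in the controls against 188, 104 and 159 after knockdown, and the call was lost without shNTC+Dox replicate 1 or 2 (adjusted p = 0.108 and 0.0902 by edgeR) or shEHD1+Dox replicate 2 or 3 (0.105 and 0.119).

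Messages with a match to a seed were then set beside those without, as a description. The 3′ untranslated region of each canonical transcript with at least 50 bases of it, in 12818 tested genes, was searched on the transcript strand for the reverse complement of a seed. The let-7 word CTACCTC was found in 11.1% of the genes, and the median log2 fold change was 0.01 both with and without it. The miR-9-5p word ACCAAAG was found in 14.3% (0.02 with, 0.01 without), the miR-924 word AAGACTC in 11.5% (0.03 and 0.01) and the miR-17-5p word GCACTTT in 24.9% (0.01 and 0.01). Regions with a word were longer, with a median of 3129 bases against 1199 for let-7.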

How the data were processed

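Libraries were made from RNA of TC71 cells with the TruSeq RNA v2 kit and sequenced in pairs. The authors deposited whole-number counts per gene, not normalized, for hg38. The study's methods name hisat2 and StringTie, whereas the submitters' processing notes list STAR 2.7.3a and DESeq2, so the counting step and its handling of shared reads are uncertain. All 6 count columns matched the labels, and 0 were left unmapped.

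Genes reaching 10 counts in 3 or more libraries were tested with edgeR 4.0.16 (robust quasi-likelihood fit, TMM, R 4.3.3), adjusted by Benjamini-Hochberg over 16785 genes. A gene was called at an adjusted p under 0.05, and the 2-fold threshold was added as an alternative. Each SE is the absolute log2 fold change divided by the square root of the F statistic of the quasi-likelihood test. The common dispersion amounted to a coefficient of variation of 15.0%. Reads carry no molecular identifiers and are not independent molecules. Log2 CPM used a prior count of 2. Gene positions, exons and hairpin placement came from GENCODE 44 (GRCh38), which held 60357 of the identifiers (99.5%) and 63 of the 64 hosts, all but MIR381HG. The members and lists were chosen with earlier results of these data known. The rule named EHD1, hosts that passed, the 8 hosts highest in CPM, well-studied hosts, the 3 leading genes of each list, and neighbours of hosts that fell. Other genes were named after their values were seen.

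Same-numbered replicates did not deviate together (correlations 0.0720, -0.0593 and -0.0448 across genes), so numbers were not treated as pairs. Alternatives were DESeq2 1.42.0, its size factors, other filters, a replicate block and leaving out each library. The scripts were tested on simulated counts.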

Additional observations from a re-analysis of the deposited data

How the results depend on the processing

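EHD1 kept its call in all 11 alternatives, with values from -1.88 to -1.68. MIR9-3HG and MIRLET7BHG kept theirs in all 11, MIR22HG in 8, MIR924HG in 7, MIR4458HG in 5 and MIRLET7A1HG in 4. All 66 of these fits were below 0 and 46 were past the threshold. Of 177 fits of the other hosts, 2 passed, both of MIR17HG. No host rose in any setting. Hosts that fell numbered 5 with no filter on low counts, beside 2590 genes called in either direction. They numbered 6 with 10 counts asked in every library and 6 with DESeq2 size factors, beside 3118 and 2887 genes called. By DESeq2 they numbered 7, beside 3622 genes called. With a 2-fold change asked 2 hosts fell, beside 1.74% of all genes tested in this direction. The hosts that fell were 1 of 8 (12.5%) once those that share exon bases with a gene other than a miRNA were left out. Of these 15 hosts 5 fell (33.3%). With the replicate number as a block, 3 hosts fell (MIR9-3HG, MIRLET7BHG and MIR22HG) and 1766 genes were called in place of 2910. The numbers did not pair the samples, as described under the methods, and the cause was not tested. Leaving out 1 library at a time gave 2 to 5 hosts and 1322 to 3616 genes called.

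Across the fits that left out a library, 4 hosts changed sign, none of them called: MIR497HG from -0.53 to 0.76, MIR503HG from -0.32 to 0.17, MIR762HG from -0.39 to 0.12 and MIR4453HG from -0.56 to 0.49. The prior count of 0.5 moved none of the 12 group means of log2 CPM of the hosts that fell by more than the spread between replicates. MIR222HG and MIR4453HG, with SEs of 1.05 and 1.09 on the log2 scale, each had a library at 0 beside libraries at 24 counts or more. MIR34AHG, at 15 counts or fewer in every library, had an SE of 0.83, so a difference of that size was not detectable at this depth.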
